A study of Mus musculus with 12 samples.

Results

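Smad2, Smad3, Smad4, Smad7, Ski, Skil, Tgif1, Smurf1 and Smurf2 are the transducers of the Smad2/3 branch of TGF-beta signaling and the genes that restrain it. These 9 genes were taken by name from the 13233 genes of the normalized count table, and all 9 were in it. The fewest reads behind any of their values were 662, for Smad7, and the most were 16322, for Ski. RNA-Seq was performed on hernia-associated fibroblasts (HAFs), primary fibroblasts that adhere in culture from the lower abdominal muscle (LAM) of male Aromhum mice. These mice carry the human aromatase gene with its own promoters on a bacterial artificial chromosome, and aromatase makes 17β-estradiol (E2) from testosterone. Every group carried that transgene, and no wild-type fibroblasts were compared here. The 4 groups held 3 samples each, all collected at 48 h. One received vehicle, which was ethanol with DMSO, and one received E2 at 10 nM. One received fulvestrant at 100 nM followed by this dose of E2, and one received fulvestrant by itself at the same dose. Per the study's methods, all cells were first starved of serum overnight, and fulvestrant or DMSO was given before E2 or ethanol. Fulvestrant competes with E2 for the estrogen receptors and leads to their degradation. The labels number the samples of each group 1 to 3 but do not say whether these came from separate mice or cultures. With replicate number in the fit, p-values measure the spread left between these samples after group and number are taken out. That spread may be technical.

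TGF-beta ligands bring together receptor kinases that phosphorylate Smad2 and Smad3, which join Smad4, enter the nucleus and bind DNA. Smad7 is induced by the same signal and blocks the receptors, Ski, Skil and Tgif1 hold down transcription at Smad-bound genes, and Smurf1 and Smurf2 are ubiquitin ligases that mark receptors and Smads for destruction. In fibroblasts the pathway is known for driving collagen production and scarring. RNA levels say nothing of the phosphorylation or location of Smad proteins, which were not measured in these files.

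Reads on the listed genes ranged from 18827792 to 44040507 per sample. All 7 fibroblast markers looked up were listed, Pdgfra and Esr1 among them, and 0 of 5 myogenic, 0 of 3 endothelial, 0 of 2 adipocyte and 0 of 2 mesothelial markers were. Every listed gene had at least 10 reads in every sample, so a marker that is not listed may still be expressed in some samples. The 3 other markers in the table, Cd68, Myh11 and Cspg4, summed to 1943 to 4295 normalized counts with fulvestrant, 2053 to 4361 with E2 plus fulvestrant, 2102 to 3272 with vehicle and 2187 to 3358 with E2. The 7 fibroblast markers summed to 191596 to 238852 with fulvestrant against 250005 to 326853 with vehicle, without overlap, and to 192699 to 267975 with E2 plus fulvestrant against 262018 to 406812 with E2, with overlap. The samples numbered 1 stood apart from the rest in all 4 groups. In those 4 samples Thy1, a fibroblast surface protein, had 36.9 to 78.3 normalized counts against 362 to 562 in the other 8, and Cspg4, a proteoglycan of pericytes, had 3192 to 4255 against 1859 to 2496. Esr1 and the sum of the fibroblast markers did overlap: Esr1 had 216 to 646 against 76.2 to 516, and the sum of the 7 was 191596 to 262018 against 237049 to 406812. Treatments were compared within replicate numbers because the plan paired samples by number and the study's methods adjust for batches.

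The promoter sequence of Smad3 and Tgif1, the 2 genes whose adjusted p was under 0.05 both for fulvestrant against vehicle and for E2 plus fulvestrant against E2 (3 samples on each side), is shown because they differed in opposite directions. Each is the 250 bases before the annotated transcription start, read 5′ to 3′ on the minus strand, from RefSeq on GRCm38.p6. The Smad3 window is chr9:63757995-63758244, and the Tgif1 window is chr17:70853533-70853782, before the most upstream of the 5 Tgif1 starts in the table. Capitals mark every match to the letters searched on both strands: the GC box GGGCGG, the estrogen response element half-site GGTCA, the full element GGTCANNNTGACC, which contains the half-site on each strand, the Smad-binding letters CAGAC, and the AP-1 site TGANTCA.
Smad3: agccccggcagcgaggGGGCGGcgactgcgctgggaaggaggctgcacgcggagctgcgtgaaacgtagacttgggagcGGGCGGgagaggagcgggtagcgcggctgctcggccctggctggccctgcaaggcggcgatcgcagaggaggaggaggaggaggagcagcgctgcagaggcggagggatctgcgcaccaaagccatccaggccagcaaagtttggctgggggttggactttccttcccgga
Tgif1: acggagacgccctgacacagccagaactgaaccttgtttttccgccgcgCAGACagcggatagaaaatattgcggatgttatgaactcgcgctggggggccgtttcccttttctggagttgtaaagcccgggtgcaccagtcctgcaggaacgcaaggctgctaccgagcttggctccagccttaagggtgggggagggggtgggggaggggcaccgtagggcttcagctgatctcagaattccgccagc

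Smad3 held 2 GC boxes, 234 to 229 and 171 to 166 bases before the start, and none of the other letters. Tgif1 held 1 copy of CAGAC in this window and none of the others. Over all 32851 promoter windows of that length, 32.7% held a GC box, 35.2% a half-site, 0.0639% a full element, 42.2% CAGAC and 6.75% an AP-1 site. Of the 9 genes, 5 had a window in the table, and Smurf2 held 7 GC boxes, Ski 5 and Smurf1 1. CAGAC also stood in the windows of Smurf1 (2 copies) and Smurf2 (1 copy) and in 2 of the other Tgif1 windows (2 copies and 1 copy). Of the other 4 Tgif1 windows, 1 held 5 GC boxes and a half-site and 1 held 1 GC box and a half-site, so whether Tgif1 has a GC box depends on the start taken, and gene-level counts do not show which Tgif1 start was used. A match to these letters is a description of the window and does not show that a factor binds there.

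Smad3, a receptor-regulated Smad that binds DNA directly, lies on chromosome 9 from 63646767 to 63757994 on the minus strand (ENSMUSG00000032402, GRCm38). It had 5623, 5365 and 5637 normalized counts in vehicle samples 1 to 3 and 4464, 4472 and 4343 with fulvestrant alone. With E2 it had 5115, 5357 and 5224, and with E2 plus fulvestrant 3993, 4737 and 4474. Each of the 6 samples without fulvestrant was above each of the 6 with it, where the lowest without was 5115 and the highest with was 4737.

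Fulvestrant alone lowered Smad3 by 0.32 on the log2 scale against vehicle. The means were 5542 ± 153 and 4426 ± 72.4 normalized counts (SD, n = 3 each), a change of -20.1%. The log2 difference had an SE of 0.0585 and a 95% confidence interval of -0.45 to -0.19, was lower in 3 of 3 pairs, and had an adjusted p of 0.0045 by limma over all 13233 genes. Calls needed an adjusted p under 0.05 and also a fold change over 1.2, which is 0.26 on the log2 scale, and Smad3 met both. It was the only one of the 9 genes called in this comparison, in which 12.5% of all genes were called. The call rests on the pairing: without the replicate number in the fit, the adjusted p by limma was 0.0897 and 0.544% of all genes were called. It was also lost when the 4 samples numbered 3 were left out (adjusted p = 0.121). In a fit of only the vehicle and fulvestrant samples the call held, at a limma adjusted p of 0.0461.

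In the presence of E2, fulvestrant gave a smaller difference in Smad3 that did not meet both parts of the rule. The means were 5232 ± 121 with E2 and 4401 ± 377 with E2 plus fulvestrant (SD, n = 3 each), a log2 difference of -0.25 (SE 0.0585, 95% confidence interval -0.38 to -0.12). The adjusted p by limma was 0.0187, lower in 3 of 3 pairs, but the fold change stayed under 1.2. None of the 9 genes was called here, where 9.6% of all genes were. By adjusted p alone, Smad3 and Tgif1 passed in both comparisons, beside 12% of all genes in the presence of E2 and 16% without it. Without the replicate number in the fit, the adjusted p of Smad3 by limma was 0.244, and 0.521% of all genes were called. Leaving out E2 plus fulvestrant sample 1, the lowest of that group, moved the log2 difference to -0.18 (adjusted p = 0.0939), and leaving out sample 2, the highest, moved it to -0.31 (adjusted p = 0.0227), which met the rule. Over the 6 fits that each left out 1 sample of these groups, the adjusted p ran from 0.0227 to 0.0939, and it was 0.0399, 0.0894 and 0.163 without the samples numbered 1, 2 and 3.

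The difference between both effects of fulvestrant on Smad3 was 0.07 on the log2 scale, with a limma adjusted p of 0.951. The interaction passed for 0% of all genes, so neither Smad3 nor another of the 9 genes differed detectably in its response with and without E2. With the E2 and vehicle samples set together against the 6 fulvestrant samples, a comparison added after the values had been seen, Smad3 was lower by a log2 difference of -0.29 (SE 0.0414, limma adjusted p = 0.00055). Smad3 was again the only one of the 9 genes called, beside 15.5% of all genes, and here it was also called without the replicate number (limma adjusted p = 0.0126, beside 2.34% of all genes). Left without the samples numbered 1, its log2 difference of -0.26 fell just short of the fold of 1.2, with an adjusted p of 0.00081, as did the -0.25 left without E2 plus fulvestrant sample 1 (adjusted p = 0.0012). Because RNA came from whole cultures, fewer cells expressing Smad3 and less Smad3 RNA per cell cannot be told apart. The sum of the 7 fibroblast markers also ran lower with fulvestrant, without overlap against vehicle and with overlap in the presence of E2. Col3a1, Dcn and Col1a1 had the highest medians (101232, 74681 and 50917 normalized counts), so the sum mostly reflects these genes. Medians of the others were 29839 for Pdgfra, 9811 for Pdgfrb, 436 for Thy1 and 234 for Esr1. Pdgfra ran from 23150 to 40301 and Pdgfrb from 8893 to 11071. Col1a1 and Col3a1 are also among the TGF-beta responsive genes below. The part of this sum in the Smad3 difference was not tested.

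**Figure D1:**
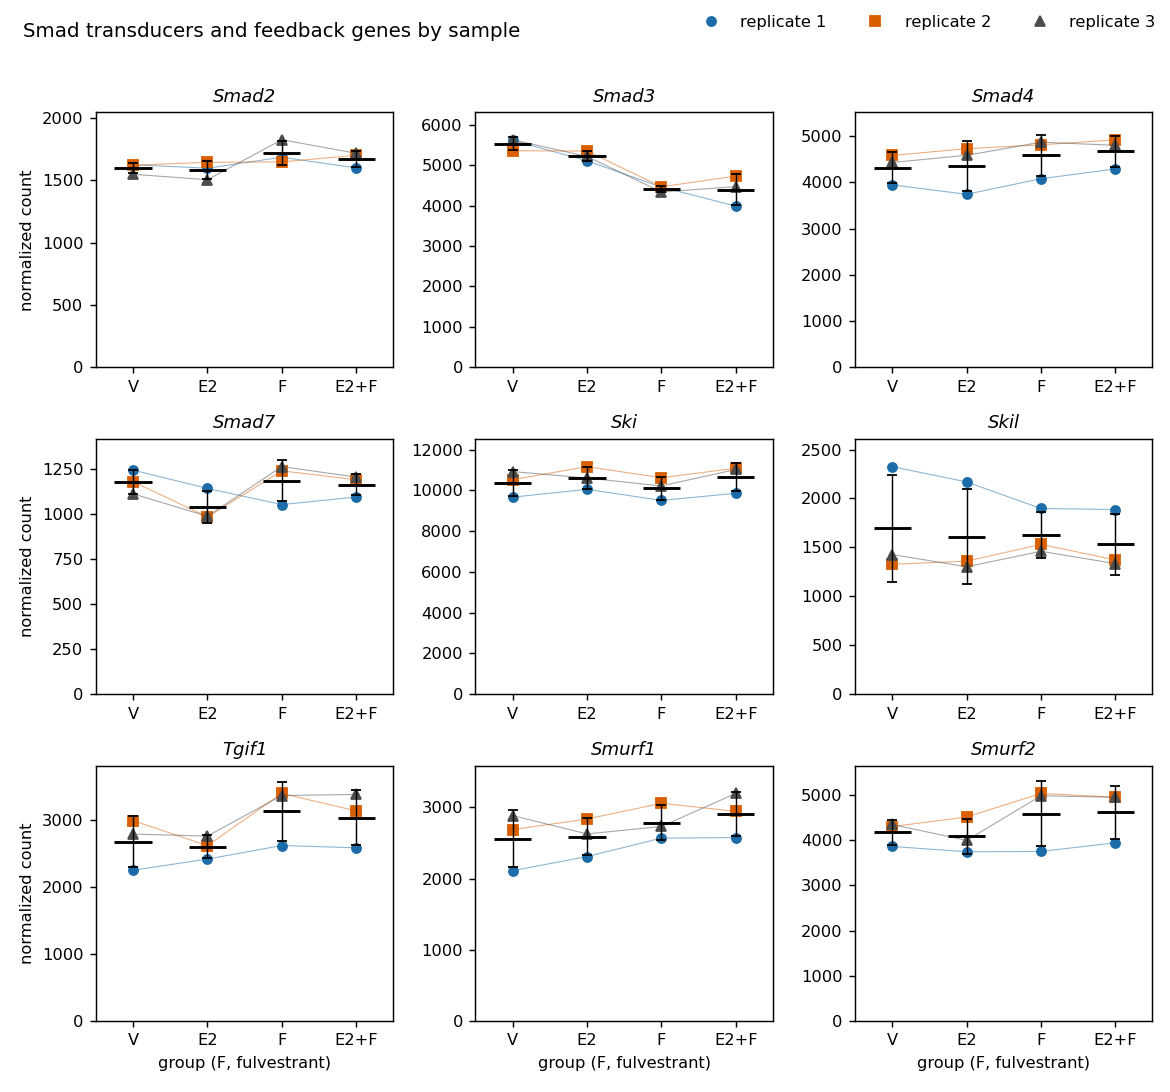
Normalized counts of the 9 genes in the 12 samples, 1 panel per gene, with the group on the horizontal axis (V, vehicle; F, fulvestrant) and replicate numbers as symbols joined by thin lines; bars are group means with SD (n = 3). In Smad3 all 6 samples without fulvestrant lie above the 6 with it, and in Skil, Ski, Smad4, Smurf1 and Smurf2 the samples numbered 1 stand apart from the others without overlap.

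Smad2, the other receptor-regulated Smad, which shares receptors and partners with Smad3, did not follow it (chromosome 18, 76241580 to 76310963). Its normalized counts were 1626, 1622 and 1549 with vehicle, 1598, 1645 and 1506 with E2, 1686, 1648 and 1826 with fulvestrant, and 1600, 1701 and 1718 with E2 plus fulvestrant. The fulvestrant samples lay above the vehicle samples without overlap, and the groups with E2 overlapped. Groups did not overlap for 2 of the 9 genes between vehicle and fulvestrant, Smad2 and Smad3, beside 11.1% of all genes, and for Smad3 alone between E2 and E2 plus fulvestrant, beside 12.5%. With 6 samples on each side, Smad3 was the 1 gene of the 9 without overlap, beside 4.3% of all genes. The log2 differences of Smad2 with fulvestrant were 0.10 without E2 (limma adjusted p = 0.272) and 0.08 with it (adjusted p = 0.423), and neither met the threshold. Sample 3 carried much of both: the difference without E2 was 0.0477 with fulvestrant sample 3 left out, and that in the presence of E2 was 0.0310 with E2 sample 3 left out.

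The ratio of Smad3 to Smad2 within a sample does not depend on how the sample was scaled. It was 3.46, 3.31 and 3.64 with vehicle and 3.20, 3.26 and 3.47 with E2. With fulvestrant it was 2.65, 2.71 and 2.38, and with E2 plus fulvestrant 2.495, 2.78 and 2.60. The 6 samples with fulvestrant all had a lower ratio than the 6 without. This ratio was chosen after the values had been seen and was not tested.

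Smad4, the common partner that Smad2 and Smad3 need in the nucleus, is on chromosome 18 from 73639009 to 73703780. It had 3946, 4585 and 4432 normalized counts with vehicle, 3743, 4731 and 4587 with E2, 4080, 4814 and 4872 with fulvestrant, and 4292, 4924 and 4804 with E2 plus fulvestrant. The groups overlapped widely, because sample 1 was the lowest of each group. Within pairs Smad4 was higher with fulvestrant in 3 of 3 pairs in both comparisons. The log2 difference was 0.11 in the presence of E2 (limma adjusted p = 0.16) and 0.08 without (adjusted p = 0.244). When samples were left out, these ran from 0.0621 to 0.132 and from 0.0593 to 0.104. With 6 samples on each side the log2 difference was 0.10 (SE 0.0325, limma adjusted p = 0.0476), under the fold threshold. That adjusted p was 0.68 without the replicate number and 0.219 with quantile normalization, which moved the difference to 0.0558, and it ran from 0.0475 to 0.229 when samples were left out, under 0.05 only without E2 sample 2.

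Smad7, the inhibitory Smad (chromosome 18, 75367529 to 75395935), showed no called difference. It had 1244, 1180 and 1112 normalized counts with vehicle, 1142, 984 and 987 with E2, 1052, 1240 and 1263 with fulvestrant, and 1094, 1191 and 1205 with E2 plus fulvestrant. The pairs disagreed: in the presence of E2, fulvestrant samples 2 and 3 were above their E2 partners and sample 1 was below its own. The log2 difference was 0.17 (SE 0.0901, limma adjusted p = 0.262) in the presence of E2 and 0.00 without it (adjusted p = 0.979). Without the samples numbered 1 the first of these became 0.28 (adjusted p = 0.019), which met the rule. E2 alone differed from vehicle in Smad7 by -0.19 (SE 0.0901, adjusted p = 0.511), and by -0.285 to -0.127 when samples were left out.

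Among the nuclear corepressors, Tgif1, a homeodomain protein that recruits histone deacetylases to Smad complexes, differed most with fulvestrant, and in the direction opposite to Smad3. It lies on chromosome 17 from 70844205 to 70853546 (ENSMUSG00000047407). With vehicle it had 2253, 2995 and 2795 normalized counts, and with fulvestrant 2623, 3402 and 3372. With E2 it had 2421, 2622 and 2764, and with E2 plus fulvestrant 2589, 3142 and 3387. Each sample with fulvestrant was above its numbered partner without it, while the groups overlapped because the samples numbered 1 were low.

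The log2 difference in Tgif1 was 0.22 in both comparisons. Without E2 it had an SE of 0.0605 and a limma adjusted p of 0.0292, and with E2 an SE of 0.0605 and an adjusted p of 0.0408, higher in 3 of 3 pairs each time. Both fold changes, 1.17 and 1.16, were under 1.2, so Tgif1 was not called. With 6 samples on each side the difference was 0.22 (SE 0.0428, adjusted p = 0.0033). Without the replicate number in the fit, the adjusted p was 0.899 without E2 and 0.928 with it. It was also above 0.05 with only the groups compared (0.112 without E2 and 0.0606 with it) and with quantile normalization (0.0781 and 0.100). When samples were left out it ran from 0.0167 to 0.26 without E2 and from 0.0158 to 0.305 with it, highest each time without the samples numbered 3, and without these it was 0.0809 with 6 samples on each side. Leaving out the samples numbered 1 raised the difference in the presence of E2 to 0.28 (adjusted p = 0.0158), and leaving out E2 sample 1 gave 0.28 (adjusted p = 0.0172), both past the rule. Leaving out vehicle sample 2 did the same in the absence of E2, at 0.28 (adjusted p = 0.0274).

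Ski and Skil, the related corepressors that disrupt active Smad complexes, had no called difference with treatment. Ski, with the highest count of the 9 genes, had 9672, 10531 and 10928 normalized counts with vehicle, 10057, 11173 and 10613 with E2, 9512, 10628 and 10222 with fulvestrant, and 9862, 11092 and 11031 with E2 plus fulvestrant. Its log2 differences with fulvestrant were 0.01 with E2 (95% confidence interval -0.10 to 0.11) and -0.04 without (-0.14 to 0.07). Skil had 2326, 1327 and 1426 normalized counts with vehicle, 2169, 1358 and 1301 with E2, 1898, 1530 and 1460 with fulvestrant, and 1887, 1371 and 1334 with E2 plus fulvestrant. In each group sample 1 of Skil was the highest, above every sample numbered 2 or 3. Its log2 differences with fulvestrant were -0.05 with E2 (-0.24 to 0.14) and -0.02 without (-0.20 to 0.17).

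The ubiquitin ligases Smurf1 and Smurf2 were higher with fulvestrant in most pairs, and neither was called. Smurf1 (chromosome 5, 144876495 to 144965847) had 2111, 2687 and 2884 normalized counts with vehicle, 2308, 2836 and 2626 with E2, 2568, 3057 and 2731 with fulvestrant, and 2575, 2945 and 3195 with E2 plus fulvestrant. Smurf2 (chromosome 11, 106820066 to 106920715) had 3864, 4305 and 4351 with vehicle, 3746, 4517 and 3998 with E2, 3754, 5039 and 4988 with fulvestrant, and 3945, 4957 and 4955 with E2 plus fulvestrant. In both genes fulvestrant was the higher sample in 3 of 3 pairs in the presence of E2 and in 2 of 3 without it, and the groups overlapped.

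In the presence of E2 the log2 differences were 0.17 for Smurf1 (SE 0.0682, limma adjusted p = 0.145) and 0.17 for Smurf2 (SE 0.064, adjusted p = 0.107), and without E2 they were 0.13 (adjusted p = 0.23) and 0.13 (adjusted p = 0.209). When samples were left out, the differences without E2 ran from 0.0535 (without the samples numbered 1) to 0.234 (without those numbered 3) for Smurf1 and from 0.0776 (without those numbered 2) to 0.212 (without those numbered 1) for Smurf2, and those in the presence of E2 from 0.106 to 0.220 and from 0.104 to 0.222. With 6 samples on each side they were 0.15 for Smurf1 (adjusted p = 0.0415) and 0.15 for Smurf2 (adjusted p = 0.03), under the fold threshold. Without the replicate number these adjusted p were 0.579 and 0.577, with quantile normalization 0.139 and 0.0794, and when samples were left out they ran from 0.0156 to 0.154 and from 0.00379 to 0.284. By adjusted p alone, 5 of the 9 genes passed in that comparison, Smad3, Smad4, Tgif1, Smurf1 and Smurf2, beside 28.4% of all genes, and of these only Smad3 passed without the replicate number. An overlap of 0.941% of the Smurf2 exon sequence with Gm27322 on the same strand could take few of its reads.

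**Figure D2:**
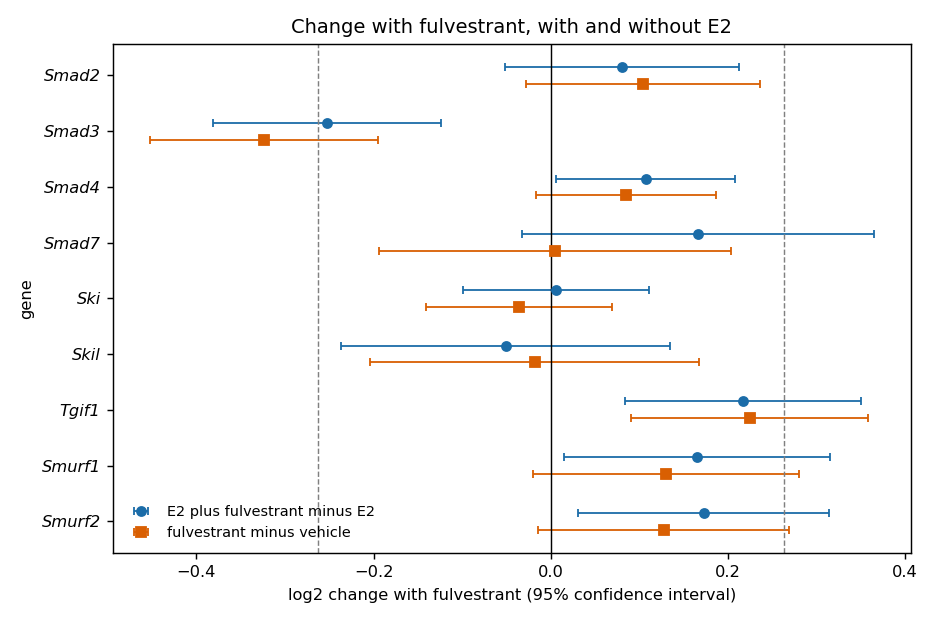
Log2 change with fulvestrant for the 9 genes, with 95% confidence intervals from limma, in the presence of E2 (circles) and without it (squares); dashed lines mark a fold change of 1.2. Smad3 lies at -0.25 and -0.32, Tgif1 at 0.22 in both, and the squares of Smad3 alone lie past a dashed line.

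E2 by itself gave no called difference in the 9 genes, whether against vehicle or, in the presence of fulvestrant, against fulvestrant alone. These comparisons use the same samples as those above, so their values are given side by side only. Against vehicle, the log2 differences of the 9 genes with E2 ran from -0.19 for Smad7 to 0.03 for Ski, with 0 genes at an unadjusted limma p under 0.05, and 0.0756% of all genes were called. Smad3 differed by -0.08 (SE 0.0585, adjusted p = 0.642), with a 95% confidence interval of -0.21 to 0.05. When samples were left out, this difference ran from -0.133 to -0.0461. Between E2 plus fulvestrant and fulvestrant alone, the differences ran from -0.10 for Skil to 0.07 for Ski, again with 0 of the 9 at an unadjusted limma p under 0.05, and 0% of all genes were called. For Smad3 the difference was -0.01, with an interval of -0.14 to 0.12.

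For 6 of the 9 genes the samples differed by replicate number. By limma's F test over the 3 numbers, these 6 passed at an adjusted p under 0.05, beside 62.5% of all genes. Tgif1, Smurf2, Smurf1, Smad4 and Ski were lower in the samples numbered 1, with log2 differences from the mean of the other numbers of -0.30, -0.27, -0.27, -0.23 and -0.14. Skil was higher there, by 0.57 (1.49-fold, F test adjusted p = 5.5e-05), with 1887 to 2326 normalized counts against 1301 to 1530. Smad3, Smad2 and Smad7 did not pass the F test (adjusted p = 0.552, 0.918 and 0.981). The low Thy1 and high Cspg4 of the samples numbered 1 moved with these differences, and their part in them was not tested.

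The sum of squares over the 12 samples divided accordingly. Treatment group held 87.2% of it for Smad3 and replicate number 2.64%. For Skil the shares were 2.52% and 88.8%, for Smad4 15.6% and 79.5%, and for Ski 15.2% and 76.4%. Tgif1, Smurf2 and Smurf1 lay between, with 34.9%, 22.1% and 23.02% for treatment group. In Smad2 and Smad7 the remainder was the largest share, at 49.4% and 56.2%.

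**Figure D3:**
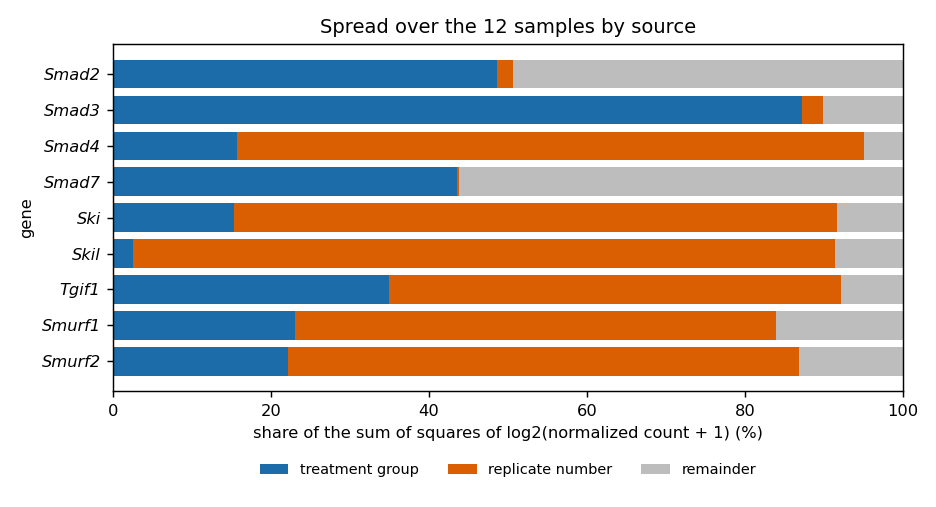
Share of the sum of squares of log2(normalized count + 1) over the 12 samples that goes with treatment group, with replicate number and with neither, for each of the 9 genes (horizontal axis, percent). Smad3 is mostly treatment group (87.2%) and Skil mostly replicate number (88.8%).

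Levels between genes were compared per kilobase of annotated exon. Ski stood highest, at 1878 ± 103 normalized counts per kilobase (SD, n = 12 samples), followed by Smad4 at 1208 ± 105, Smad3 at 884 ± 99.7, Smurf2 at 709 ± 83.1, Tgif1 at 509 ± 69.7, Smurf1 at 428 ± 48.2, Smad7 at 252 ± 21.4, Smad2 at 187 ± 9.51 and Skil at 167 ± 37.0. Neighbours kept this order in all 12 samples except Smad3 above Smurf2, which held in 10 of 12, and Smad2 above Skil, which held in 8 of 12. The ranges of those neighbours overlapped, from 721 to 1017 for Smad3 and from 608 to 818 for Smurf2, and from 171 to 208 for Smad2 and from 134 to 240 for Skil. The exon length counts every annotated transcript, including those that may not be expressed in HAFs.

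The wider pathway was described by lists of named genes, and their counts are read beside the 9.6% and 12.5% of all genes called with and without E2. Of 28 partners and regulators of Smad2/3, 2 were called in the presence of E2. The ubiquitin ligase Wwp1 rose by 0.27 (limma adjusted p = 0.0084), from 4074 ± 130 to 4928 ± 245 normalized counts (SD, n = 3 each), and the deubiquitinase Usp11 fell by 0.45 (adjusted p = 0.0047), from 2214 ± 969 to 1612 ± 683. Without E2, Usp11 fell by 0.59 (adjusted p = 0.00084) and the ligase Nedd4l, named after its values were seen, rose by 0.33 (adjusted p = 0.003). The median log2 difference of the list was 0.03 with E2 and 0.01 without, beside 0.01 for all genes in both.

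Of 29 genes known to respond to TGF-beta, 5 rose and 5 fell in the presence of E2, and 5 rose and 6 fell without it. Sphk1, a sphingosine kinase, rose by 1.29 (adjusted p = 3.1e-05), Spsb1 by 0.55 (adjusted p = 0.0037), Timp1, an inhibitor of matrix metalloproteinases, by 0.54 (adjusted p = 0.0096) and Rhob, a small GTPase, by 0.42 (adjusted p = 0.0012). The matrix protein gene Postn fell by 0.75 (adjusted p = 0.00074), and the collagen genes Col1a1, Col3a1 and Col1a2 fell by 0.67, 0.55 and 0.53 (limma adjusted p = 0.0013, 0.0115 and 0.0286). The list median was 0.03 with E2 and 0.12 without. Samples of 1 group were far apart in some of these genes, as in Postn, which ran from 17333 to 118765 normalized counts with E2.

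Of 16 ligands, latency proteins and receptors, 1 rose and 5 fell in either comparison, and these were named after their values were seen. In the presence of E2, Acvrl1, a type I receptor kinase of the family, rose by 0.69 (adjusted p = 0.0029). Ltbp1, which tethers latent TGF-beta to the matrix, fell by 0.73 (adjusted p = 0.0019), Tgfb2, a ligand, by 0.61 (adjusted p = 0.0049), Ltbp2 by 0.39 (adjusted p = 0.0252), Ltbp3 by 0.30 (adjusted p = 0.006) and Acvr2a, an activin receptor, by 0.28 (adjusted p = 0.0089). The list median was -0.08 with E2 and -0.12 without. Of the 3 Smads of the BMP branch, 0 were called in the presence of E2, and 0 had an unadjusted limma p under 0.05 there, while Smad9 fell by 0.77 without it (adjusted p = 0.0254). Without the replicate number in the fit, 0 genes of these lists were called in the presence of E2 and 1 without it, Tgfb2. In the presence of E2 the calls of Sphk1, Rhob, Postn and Ltbp1 held in each fit that left out samples, whereas those of Wwp1, Usp11, Spsb1, Timp1, the 3 collagen genes, Acvrl1, Tgfb2, Ltbp2, Ltbp3 and Acvr2a were lost without the samples numbered 3. The Smad9 call was lost without any one of the replicate numbers.

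**Figure D4:**
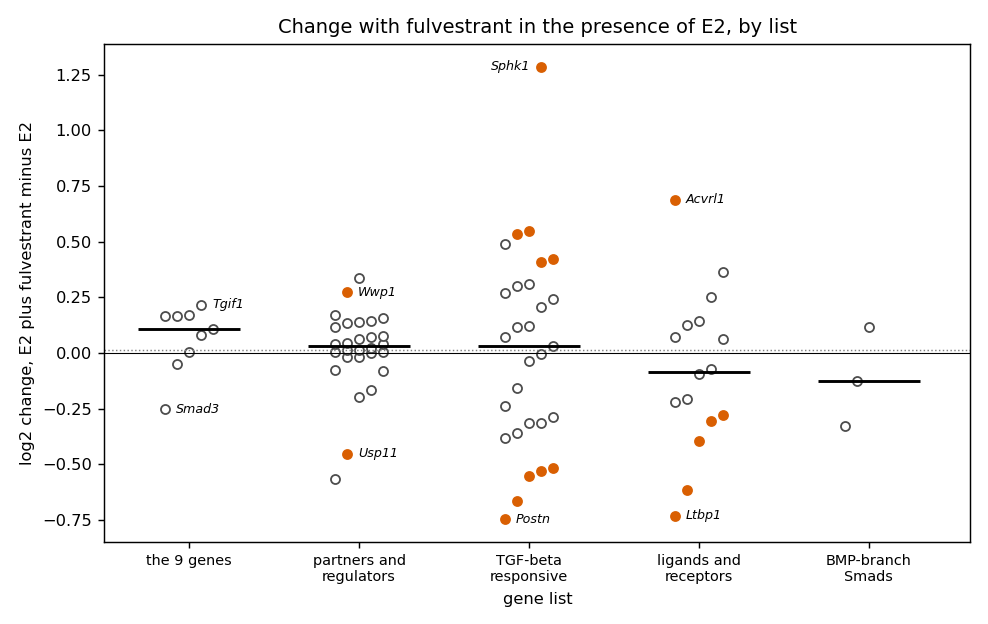
Log2 change with fulvestrant in the presence of E2 for the 9 genes and for 4 lists of pathway genes; filled points are called (limma adjusted p under 0.05 and fold change over 1.2), open points are not, bars are list medians and the dotted line is the median of all genes (0.01). None of the 9 genes is filled, Sphk1 lies at 1.29, and Postn and Ltbp1 lie at -0.75 and -0.73.

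The genes whose pattern over the 12 samples was most like that of Smad3, after each replicate number's mean was subtracted, were Myo6, an unconventional myosin (Pearson r = 0.99, n = 12), and Nhs (Pearson r = 0.988, n = 12). Myo6 had a mean of 5648 normalized counts with vehicle, 4993 with E2, 3890 with fulvestrant and 3752 with E2 plus fulvestrant, and Nhs had 1052, 910, 640 and 642. Before that subtraction Myo6 overlapped widely, from 3751 to 9193 with vehicle and from 2725 to 6001 with fulvestrant. Nhs did not overlap between these groups, from 833 to 1337 and from 589 to 729. The points share libraries and scaling, and these correlations are given as a description.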

How the data were processed

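Per gene, the deposited table gives 1 signal for each of the 12 samples, a normalized read count. Per the labels and the study's methods, the authors trimmed reads with Trimmomatic 0.39, aligned them to mm10 with STAR 2.5.2, assigned them to genes by strand with HTSeq 0.13.5, removed counts under 10 and normalized with DESeq2 1.37. Batch adjustment is also named in the methods, but samples with the same number still deviated together (18 pairs across groups, r = 0.631 to 0.923 across genes). The 36 pairs of different number had r of -0.862 to 0.792, which overlaps. Because the samples numbered 1 stood apart, this does not show that those numbered 2 and 3 match by number. Samples were paired by the numbers in their labels, as planned, and the counts of pairs rest on that. Multiplied by 1 factor per sample, all values were whole reads within 0.001. Here log2(value + 1) was fitted with limma 3.58.1 (R 4.3.3, eBayes with a variance trend) to all 12 samples with group and replicate number as terms, with Benjamini-Hochberg adjustment over the 13233 genes. The fit was tested on simulated data. Positions came from GENCODE M21 and sequences from RefSeq, read with pandas 2.3.3, and matplotlib 3.10.9 drew the plots. Members, gene lists and tests were chosen with earlier results of these data known. Named were the 9 genes, listed genes called in the presence of E2 (up to 4 in each direction for partners and responsive genes) and the 2 genes most like Smad3. Nedd4l and Smad9, called only without E2, were named besides. Each limma difference is on the log2(value + 1) scale. Alternatives were no replicate number, only the groups compared, a pseudocount of 8, a mean of at least 100, quantile normalization, adjusted p alone, and leaving out samples. A gene of the responsive list is not reported here.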

Additional observations from a re-analysis of the deposited data

How the results depend on the processing

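The number of the 9 genes called was the same under a pseudocount of 8 and a mean of at least 100, and, in the 4 comparisons between 2 groups, in a fit of only the groups compared. In the presence of E2 it was 0, and became 1 (Smad3) with quantile normalization, 2 (Smad3 and Tgif1) by adjusted p alone, and 0 to 2 when samples were left out. Between vehicle and fulvestrant it was 1, and became 0 with no replicate block, 2 by adjusted p alone and 0 to 2 when samples were left out. With 6 samples on each side it was 1, and became 5 by adjusted p alone and 0 to 1 when samples were left out. In the remaining comparisons it was 0 under each alternative run. With no replicate block the count of all genes called fell from 1270 to 69 in the presence of E2, from 1648 to 72 between vehicle and fulvestrant, from 2054 to 310 with 6 on each side and from 10 to 1 for E2 against vehicle. A fit of only the groups compared gave 692 genes between vehicle and fulvestrant and 57 for E2 against vehicle. By adjusted p alone 3752 passed with 6 on each side. Leaving out a replicate number gave 316 to 1611 in the presence of E2 and 399 to 2312 between vehicle and fulvestrant. For E2 against vehicle leaving out samples gave 0 to 59 genes, and for E2 plus fulvestrant against fulvestrant 0 to 4. Calls among the partners, responsive genes, and ligands and receptors ranged over 0 to 3, 4 to 13 and 1 to 6 in the presence of E2 when samples were left out, and over 1 to 4, 6 to 15 and 1 to 8 between vehicle and fulvestrant, and Wwp1 was not called with quantile normalization. Without the samples numbered 1, 11 genes passed the interaction test, none of them among the 9.

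Differences near 0 changed sign. With quantile normalization Ski became -0.0101 in the presence of E2 and Smad7 -0.0183 between vehicle and fulvestrant. When samples were left out, the ranges in the presence of E2 were -0.0194 to 0.0227 for Ski and -0.0956 to 0.0244 for Skil, and between vehicle and fulvestrant -0.0845 to 0.13 for Smad7 and -0.13 to 0.12 for Skil. They were -0.10 to 0.0438 for Tgif1 between E2 and vehicle, and -0.0659 to 0.063 for Smad3 and -0.13 to 0.0412 for Smad7 between E2 plus fulvestrant and fulvestrant. With 6 samples on each side Skil ranged from -0.11 to 0.0719. Smad3 and Tgif1 kept their signs with fulvestrant in each fit. The cause of these changes was not tested. Tests on read counts were planned and were not run.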
